A study of Saccharomyces cerevisiae with 31 samples.

Results

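The genes described here encode the B-type cyclins CLB1, CLB2, CLB3 and CLB4 and 6 other proteins of G2 and mitosis in budding yeast: CDC5, CDC20, SWI5, ALK1, HST3 and CHS2. They were chosen by symbol, as the probe sets whose Saccharomyces cerevisiae gene symbol in the array annotation was among these names, and each gene had 1 probe set. They are 10 of the 5449 S. cerevisiae genes measured. Total RNA came from strain CEN.PK122 in an aerated continuous culture whose redox state, followed through dissolved oxygen, oscillated by itself with a 2 h period. Samples were taken at 4 min intervals between 12.53 and 14.53 h, and each was hybridized to its own Affymetrix Yeast 2.0 array, 31 in all. The arrays form 1 group with no control, treated as 1 culture, and the labels place each at a phase angle between 5.93 and 362.01 degrees without saying which angles belong to respiration. The labels say nothing of ploidy, mating type or any engineered allele.

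In budding yeast the cyclin-dependent kinase Cdc28 pairs with successive cyclins, and the Clb cyclins drive spindle assembly and entry into mitosis. Many genes needed at this stage, known as the CLB2 cluster, are transcribed together by Mcm1, Fkh2 and Ndd1, and Cdc5 phosphorylates this complex. Cdc20 then activates the anaphase-promoting complex (APC/C), which destroys securin and the Clb cyclins, after which Swi5 enters the nucleus and switches on genes of the next G1. In continuous cultures that oscillate metabolically, only part of the cells divides in a given cycle. In RNA of a whole culture, fewer cells in G2 or mitosis and less RNA per cell cannot be told apart.

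Deposited values are linear probe set intensities, and their precision is limited by how many arrays there are. The array at 350.11 degrees had the highest median, 2142, and that at 41.54 degrees the lowest, 1056, a 2.03-fold difference, so log2 values were quantile-normalized over S. cerevisiae probe sets and other scalings are given beside that one. The array median itself followed the phase angle with a fitted peak-to-trough range of 0.37 ± 0.12 on the log2 scale (SE) and a peak at 329.7 degrees. The poly-A spike controls relative to the hybridization spikes split the arrays into batches of 16 and 15 that follow the numbers in the array descriptions. Each of the 10 probe sets was above percentile 95 of the probe sets of other species on 31 of 31 arrays, by 12.7-fold at the least (CLB2). Of markers of other cell states, the summed deposited intensity of 12 meiotic genes ran from 2066 to 6107 per array, that of 14 mating-type and haploid genes from 4157 to 9607, and that of 4 stationary-phase genes from 5824 to 24757. All of these marker genes had a median above the detection floor of 17.04. Medians of the meiotic genes ran from 20.4 (SPO77, with 0.9 on its lowest array) to 2282 (IME1), with the regulator NDT80 at 485. Those of the mating-type and haploid genes ran from 57.5 (MF(ALPHA)2) to 1638 (MF(ALPHA)1), with the pheromone receptor genes STE2 and STE3 at 303 and 374. The part of these marker genes in the levels below was not tested.

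The first question was whether the G2 and mitotic transcripts vary with the phase of the oscillation, and by how much. ALK1, CDC5, SWI5, HST3, CDC20, CHS2 and CLB3 varied with phase, and CLB1, CLB2 and CLB4 did not pass the test. Fitted ranges lay between 0.10 (CLB4) and 0.51 (ALK1) on the log2 scale, with a median of 0.29 against 0.54 over all 5422 probe sets tested. Thus 7 of 10 genes had an adjusted p under 0.05 in limma's F-test of the cosine and sine of the phase angle, where 89.1% of all tested probe sets did. None of the 10 reached a fitted range of 2-fold (1 on the log2 scale), where 23.1% of all tested probe sets passed with such a range. The largest range that any of the genes had under any of 17 settings was 0.63, for CDC5 on the deposited scale. These settings held a curve of up to 3 periods per cycle after quantile normalization only. On other scales such curves had larger ranges, up to 0.91 for CDC20 with arrays scaled to their hybridization spikes and 0.88 for HST3 on the deposited scale. Adjusted p-values here and below are Benjamini-Hochberg values over all probe sets tested, except for the gene pairs. They weigh a fitted curve against the scatter of these arrays around it over 1 sampled cycle, a scatter that may be technical. Except where said, they take arrays as independent, although residuals of neighbouring arrays around the single cosine were correlated (below).

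**Figure D1:**
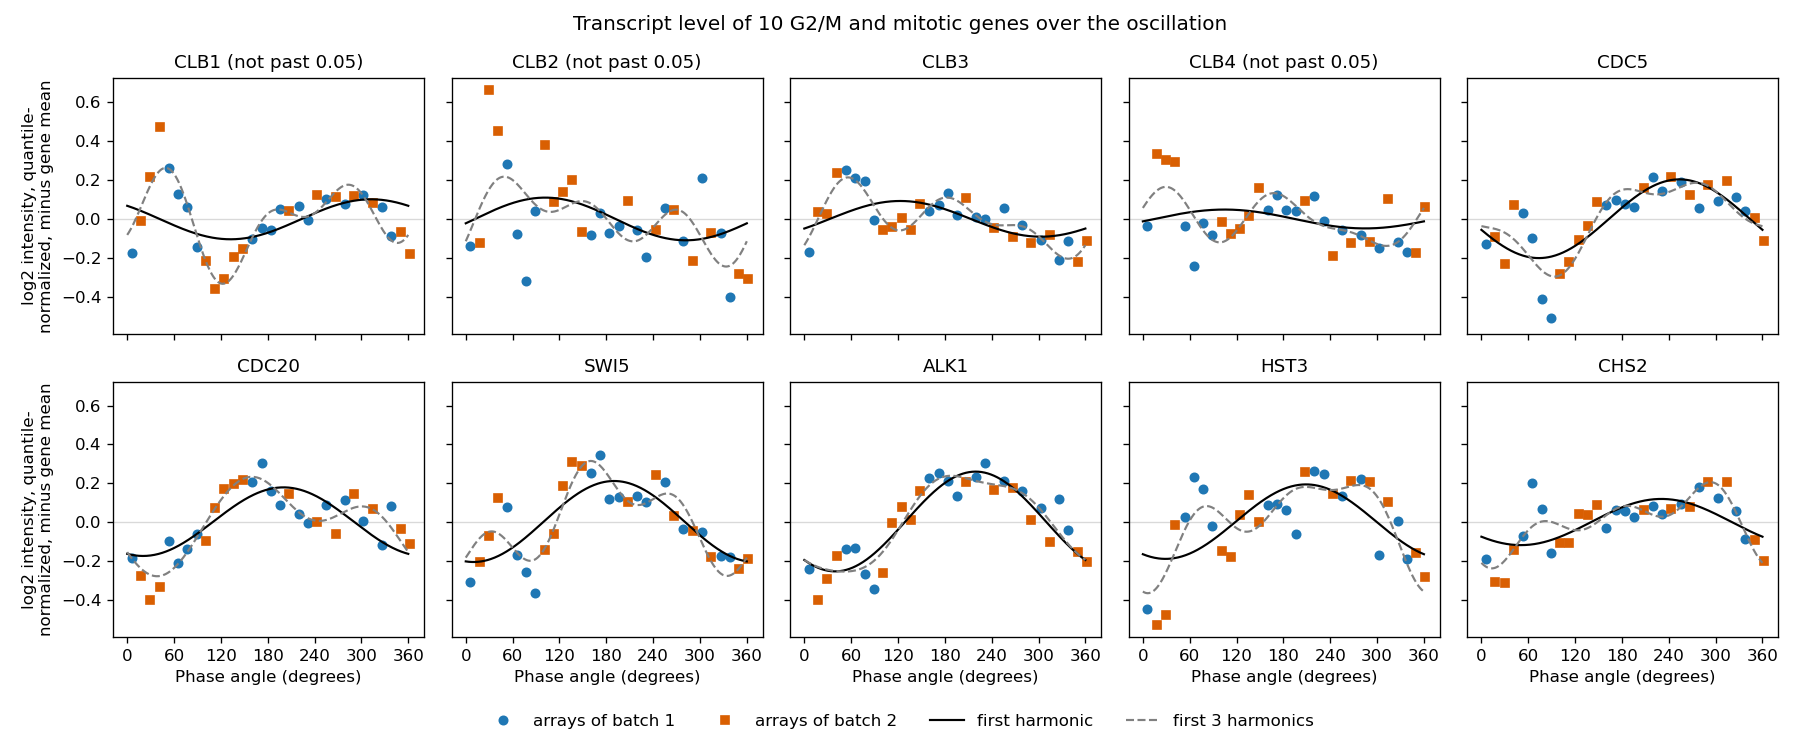
Quantile-normalized log2 intensity of each gene minus its mean over 31 arrays (vertical axis) against phase angle in degrees (horizontal axis), with circles for arrays of batch 1, squares for batch 2, a solid line for the first harmonic and a dashed line for the first 3. ALK1, SWI5 and CDC20 follow a broad wave with fitted peaks at 219, 190 and 200.2 degrees, whereas CLB1, CLB2 and CLB4 have their highest arrays at 41.54, 29.67 and 17.8 degrees.

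Among the cyclins, CLB1 (YGR108W), a major mitotic cyclin, had normalized intensities with a lowest value of 1430 at 112.75 degrees, a median of 1887 and a highest value of 2551 at 41.54 degrees. The arrays at 29.67 and 53.41 degrees were the next highest, and those at 100.88 and 124.62 degrees the next lowest, so its maximum and minimum were close together in the cycle. From 180 degrees on it changed little: window means of log2 intensity were 10.86 ± 0.05, 10.95 ± 0.02 and 10.86 ± 0.10 from 180 to 240, 240 to 300 and 300 to 360 degrees (SD, n = 5 arrays each). A single cosine described this shape poorly, with a range of 0.21 ± 0.08 (SE) and an adjusted p of 0.0647. Terms with 2 and 3 periods per cycle, called faster variation here, passed with an adjusted p of 1.68e-07, and the curve of 3 harmonics peaked at 49 degrees with a range of 0.60.

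CLB2 (YPR119W), the main mitotic cyclin and the namesake of the cluster, had its lowest normalized intensity, 318, at 338.24 degrees, a median of 404 and its highest, 666, at 29.67 degrees. It was 386 at 17.8 degrees, 666 at 29.67, 576 at 41.54, 512 at 53.41, 399 at 65.28 and 338 at 77.14 degrees. The step between 17.8 and 29.67 degrees, 0.79 on the log2 scale, was the largest step between neighbouring arrays of any of the 10 genes, and a further high array stood at 100.88 degrees with 547. Neither the single cosine (range 0.22 ± 0.11, SE, adjusted p = 0.182) nor the faster terms (adjusted p = 0.253) passed. After quantile normalization CLB2 is thus the 1 gene of the 10 for which no cosine term passed, although its highest array was 2.09-fold above its lowest. Its single cosine did pass on the deposited scale (adjusted p = 0.0278) and with arrays scaled to their hybridization spikes (adjusted p = 0.0111).

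CLB3 (YDL155W), a cyclin active from S phase to spindle assembly, varied least between single arrays: its normalized intensity had a lowest value of 1504 at 350.11 degrees, a median of 1755 and a highest value of 2087 at 53.41 degrees. Its 4 highest arrays ran from 41.54 to 77.14 degrees, with 2068, 2087, 2030 and 2006. It passed with an adjusted p of 0.0126, a peak at 123 ± 17 degrees and a range of 0.18 ± 0.06 (SE), and its faster terms passed with an adjusted p of 1.38e-06. CLB4 (YLR210W), the paralog of CLB3, had a lowest value of 745 at 65.28 degrees, a median of 867 and a highest value of 1111 at 17.8 degrees. Its 3 highest arrays were those at 17.8, 29.67 and 41.54 degrees, all of batch 2, and every other array was below 983. The single cosine gave the smallest range of the 10 genes, 0.10 ± 0.07 (SE, adjusted p = 0.450), and the faster terms passed with an adjusted p of 0.00979. All 4 cyclins had their highest array between 17.8 and 53.41 degrees on this scale.

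CDC5 (YMR001C), the polo-like kinase of mitotic entry and exit, had its lowest normalized intensity, 1026, at 89.01 degrees, a median of 1520 and its highest, 1693, at 219.56 degrees. The low values were a dip, with 1362 at 65.28 degrees, 1096 at 77.14, 1026 at 89.01, 1200 at 100.88 and 1250 at 112.75 degrees. From 148.35 to 326.37 degrees every array was at or above 1516. Its range was 0.40 ± 0.06 and its fitted peak at 254 ± 8.3 degrees (SE, adjusted p = 2.27e-06), and the faster terms did not pass (adjusted p = 0.103).

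CDC20 (YGL116W), the APC/C activator of anaphase, had a lowest normalized intensity of 530 at 29.67 degrees, a median of 702 and a highest of 864 at 172.09 degrees. It was low from 17.8 to 41.54 degrees, where CLB4 had its 3 highest arrays. Its window mean of log2 intensity was 9.22 ± 0.12 from 0 to 60 degrees (SD, n = 6 arrays) and 9.67 ± 0.05 from 120 to 180 degrees (SD, n = 5 arrays), and these windows did not overlap in any array. The array at 362.01 degrees is counted in the window from 0 to 60 degrees. CDC20 had a range of 0.35 ± 0.06 and a peak at 200.2 ± 9.8 degrees (SE, adjusted p = 1.65e-05), and its faster terms passed (adjusted p = 9.32e-05).

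SWI5 (YDR146C), the transcription factor of genes expressed between mitosis and G1, had its lowest normalized intensity, 765, at 89.01 degrees, a median of 962 and its highest, 1254, at 172.09 degrees. It had a small early maximum, 1074 at 41.54 degrees, before 765 at 89.01 degrees and 1223 at 136.48 degrees. The window from 120 to 180 degrees, at 10.22 ± 0.06, lay above all arrays of the window from 60 to 120 degrees, at 9.75 ± 0.12 (mean log2 intensity, SD, n = 5 arrays each). Its range was 0.42 ± 0.07 with a peak at 190 ± 9.5 degrees (SE, adjusted p = 8.93e-06), and the faster terms passed (adjusted p = 0.00187).

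ALK1 (YGL021W), a haspin-like protein kinase, had the largest fitted wave of the 10 genes. Its normalized intensity was lowest at 17.8 degrees with 1083, had a median of 1441 and was highest at 231.43 degrees with 1766. All arrays from 5.93 to 100.88 degrees were at or below 1303, and all from 148.35 to 278.9 degrees at or above 1571. It had a range of 0.51 ± 0.05, that is 1.43-fold, and a fitted peak at 219 ± 5.4 degrees (SE, adjusted p = 1.46e-09). The faster terms did not pass (adjusted p = 0.581).

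HST3 (YOR025W), a sirtuin that removes acetyl groups from lysine 56 of histone H3 after S phase, was lowest at 17.8 degrees with 698, had a median of 1033 and was highest at 219.56 degrees with 1207. The arrays at 5.93, 17.8 and 29.67 degrees, with 739, 698 and 723, stood below all others, of which the next was the array at 362.01 degrees with 828. It had a range of 0.38 ± 0.09 and a peak at 209 ± 13 degrees (SE, adjusted p = 0.000903). CHS2 (YBR038W), the chitin synthase of the primary septum, was lowest at 29.67 degrees with 1316, had a median of 1680 and was highest at 290.77 degrees with 1884. It also reached 1878 at 65.28 degrees, where HST3 was at 1184. The 2 profiles had the highest correlation of any pair of the 10 genes (Pearson r = 0.83 over 31 arrays). CHS2 had a range of 0.24 ± 0.06 and a peak at 231 ± 14 degrees (SE, adjusted p = 0.00227), and the faster terms passed for HST3 and CHS2 with adjusted p-values of 0.00521 and 0.000389.

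Faster variation thus passed for 7 of the 10 genes, where 86.1% of all tested probe sets passed, and the exceptions were CLB2, CDC5 and ALK1. Within batch 1, which held no array from 17.8 to 41.54 degrees, 2 of 10 passed (63.0% of all tested probe sets). With the first 3 harmonics in 1 test after quantile normalization, 9 of the 10 genes passed, against 95.7% of all tested probe sets. CLB2 was the exception (adjusted p = 0.173), but passed that test on the deposited and spike scales (adjusted p = 0.0168 and 0.00420). The 3-harmonic curves of the cyclins peaked at 49 (CLB1 and CLB2), 56 (CLB3) and 30 degrees (CLB4). Those of the other genes peaked at 160 (CDC20 and SWI5), 275 (CDC5), 276 (HST3) and 293 degrees (CHS2), with ALK1 between these angles. These angles are those after quantile normalization, and some moved far with the scaling: the curve of CDC20 peaked at 306, 325 and 312 degrees on the median-centred, deposited and spike scales, and that of SWI5 at 165, 235 and 264 degrees. That of CLB1 peaked at 48, 55 and 293 degrees on those scales, that of CLB2 at 276, 241 and 287 degrees, and that of CLB4 at 25, 348 and 328 degrees.

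The last array, at 362.01 degrees, was 1 cycle after the first, at 5.93 degrees, and the 2 can only be set side by side. CLB1 had 1622 in the last array and 1626 in the first, CLB2 had 340 and 382, and CDC5 had 1345 and 1332 normalized intensity. The difference, last minus first, lay between -0.17 (CLB2) and 0.16 (HST3) on the log2 scale over the 10 genes. It was smaller than the span between lowest and highest array for each gene, which ran from 0.47 (CLB3) to 1.07 (CLB2).

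The second question was in which order the transcripts peak. By the fitted single cosine, the order was CLB2, CLB4 and CLB3 at 102, 105 and 123 degrees, then SWI5, CDC20, HST3, ALK1, CHS2 and CDC5 at 190, 200.2, 209, 219, 231 and 254 degrees, then CLB1 at 312 degrees. Of the neighbours in this order, CLB3 and SWI5 differed by more than 2 SE (67.1 ± 18.3 degrees, SE), as did CDC5 and CLB1 (58.8 ± 22.8 degrees, SE). The other neighbours did not differ beyond that error. These SEs are for quantile-normalized values and take arrays as independent. With arrays taken as serially correlated (below), the SEs of the peaks were 32 degrees for CLB3, 19 for SWI5, 18 for CDC5 and 45 for CLB1. CLB3 peaked before SWI5 with median centring (121 and 209 degrees). In fits of CLB3 that did not pass, it peaked after SWI5 on the deposited scale (359.3 and 266 degrees) and with spike scaling (279 and 241 degrees). Farther apart in the order, ALK1 peaked 29.5 ± 8.6 degrees and CDC5 63.6 ± 10.2 degrees (SE) after SWI5. The order of ALK1 and SWI5 did not hold on every scale: their peaks were at 220.3 and 209 degrees with median centring, 243 and 241 degrees with spike scaling, and 261.9 and 266 degrees, ALK1 before SWI5, on the deposited scale. CDC5 peaked after SWI5 on all 4 scales. The angles of CLB1, CLB2 and CLB4 come from fits that did not pass and describe poorly their narrow early maxima after quantile normalization. With median centring the highest arrays of these genes were again at 41.54, 29.67 and 17.8 degrees. With spike scaling they were at 41.54, 302.64 and 314.51 degrees, and on the deposited scale at 326.37 degrees for each of them.

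Correlations of quantile-normalized values over the 31 arrays, which share scaling and labelling, ran from 0.34 to 0.83 among CDC5, CDC20, SWI5, ALK1, HST3 and CHS2. After HST3 and CHS2 the closest pairs were SWI5 and ALK1 at 0.74, CDC5 and ALK1 at 0.73 and CDC20 and ALK1 at 0.71. Among the 4 cyclins the correlations ran from 0.18 (CLB1 and CLB4) to 0.40 (CLB1 and CLB3). Between a cyclin and 1 of the other 6 genes they ran from -0.45 (CLB4 and CHS2) to 0.38 (CLB1 and CDC5). CLB2, the main mitotic cyclin, was at -0.14 with CDC5, -0.29 with CDC20 and 0.27 with SWI5. These signs are for quantile-normalized values, and correlations on other scales are not given. On the deposited scale the fitted peaks of CLB2, CDC5, CDC20 and SWI5 were at 319.6, 289.9, 276.5 and 266 degrees.

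The third question was how far size and timing depend on the scaling of the arrays. With each array centred on its median, the same number of genes passed, 7 of 10, where 89.7% of all tested probe sets did. On this scale ranges lay between 0.09 (CLB4) and 0.52 (ALK1), and the fitted peaks of CDC5, ALK1 and CHS2 were at 255, 220.3 and 223 degrees. Those of SWI5, HST3 and CDC20 were at 209, 228 and 232 degrees, each later than after quantile normalization. CLB2 and CLB4 moved to the other side of the cycle, to 282 and 311 degrees, with adjusted p-values of 0.620 and 0.410.

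On the deposited scale, which keeps the differences in array brightness, 9 of 10 genes passed, where 73.3% of all tested probe sets did. CLB1, CLB2 and CLB4 had ranges of 0.55, 0.45 and 0.46 and peaks at 327, 319.6 and 326 degrees, beside 329.7 degrees for the array medians. All 10 fitted peaks fell between 261.9 (ALK1) and 359.3 degrees (CLB3) on this scale. Deposited intensities of CLB2 ran from 286 at 148.35 degrees to 640 at 326.37 degrees, and those of CDC20 from 353 at 41.54 degrees to 1063 at 350.11 degrees, the widest of the 10 genes at 3.01-fold. With arrays scaled to their hybridization spikes, 9 of 10 passed (86.2% of all tested probe sets), with peaks between 241 (SWI5) and 308 degrees (CLB1). CLB3 was the exception on both scales, with adjusted p-values of 0.219 on the deposited scale and 0.909 with spike scaling. The fitted peaks of CLB2, CLB3 and CLB4 therefore cannot be stated apart from the scaling: over the 4 scales they lay between 102 and 319.6, 121 and 359.3, and 105 and 326 degrees. Those of CLB1 lay between 308 and 327 degrees. Those of SWI5, CDC20 and HST3 lay between 190 and 266, 200.2 and 276.5, and 209 and 275.3 degrees. Those of ALK1, CDC5 and CHS2 lay between 219 and 261.9, 254 and 289.9, and 223 and 293.5 degrees. ACT1, the actin gene, had a range of 0.05 ± 0.03 after quantile normalization (SE, adjusted p = 0.200).

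**Figure D2:**
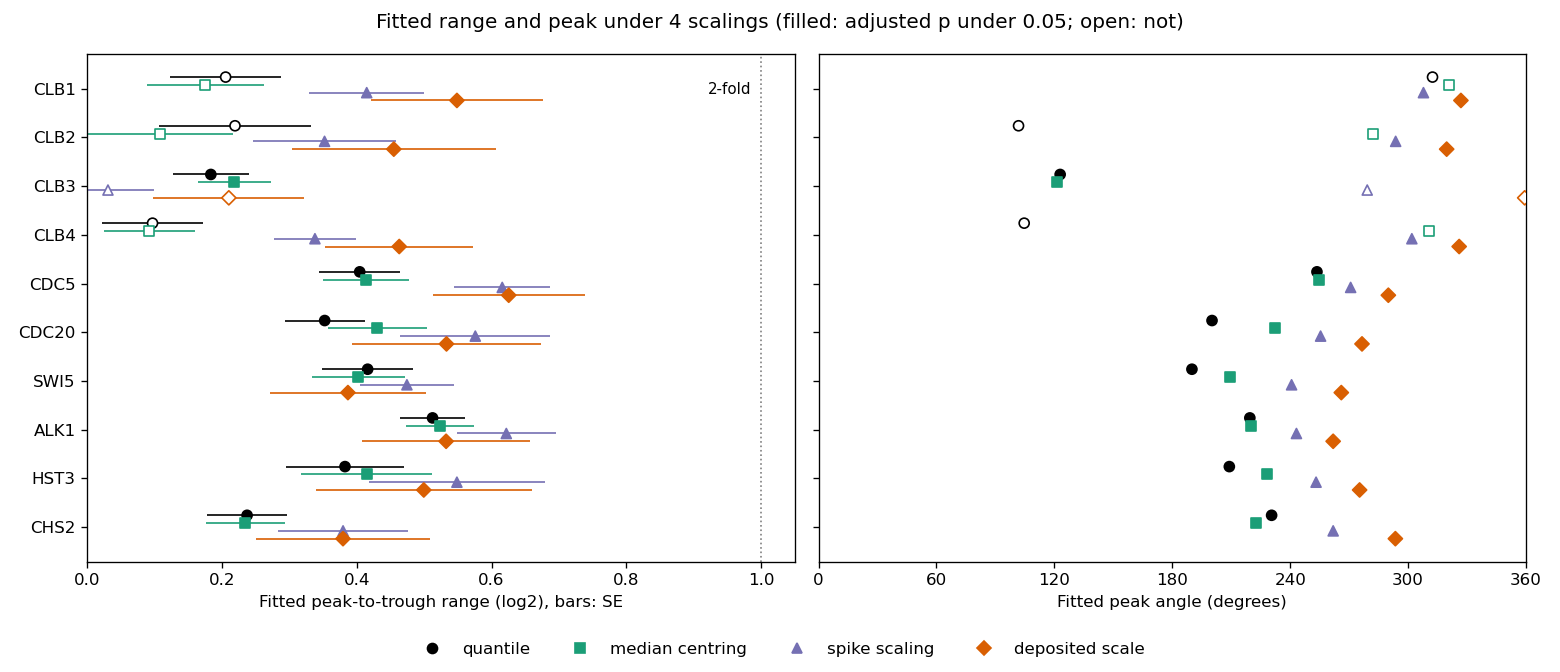
Fitted peak-to-trough range in log2 units with SE bars (left) and fitted peak angle in degrees (right) of each gene under 4 scalings of the 31 arrays, filled where the adjusted p was under 0.05. ALK1 stays between 0.51 and 0.62 in range, CLB2 moves between peaks at 102 and 319.6 degrees, and every range is left of the dotted 2-fold line.

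Window means show which part of the cycle carries these differences. After quantile normalization the mean of CDC20, ALK1, HST3 and CHS2 was lowest from 0 to 60 degrees, at 0.23, 0.24, 0.29 and 0.20 below the gene's mean on the log2 scale. CDC5 and SWI5 were lowest from 60 to 120 degrees, at 0.30 and 0.20 below. On the deposited scale the window from 120 to 180 degrees was the lowest for CLB1, CLB2, CLB3, CLB4, CDC5 and CHS2, at 0.47, 0.41, 0.27, 0.35, 0.30 and 0.26 below, and CHS2 was 0.23 below from 0 to 60 degrees. SWI5 was 0.15 and 0.14 below from 0 to 60 and from 60 to 120 degrees on that scale. The arrays from 124.62 to 148.35 degrees, which belong to batch 2, held the lowest deposited intensity of CLB1, CLB2, CLB3, CLB4 and CDC5. The part of array brightness in this was not tested beyond the scalings above.

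**Figure D3:**
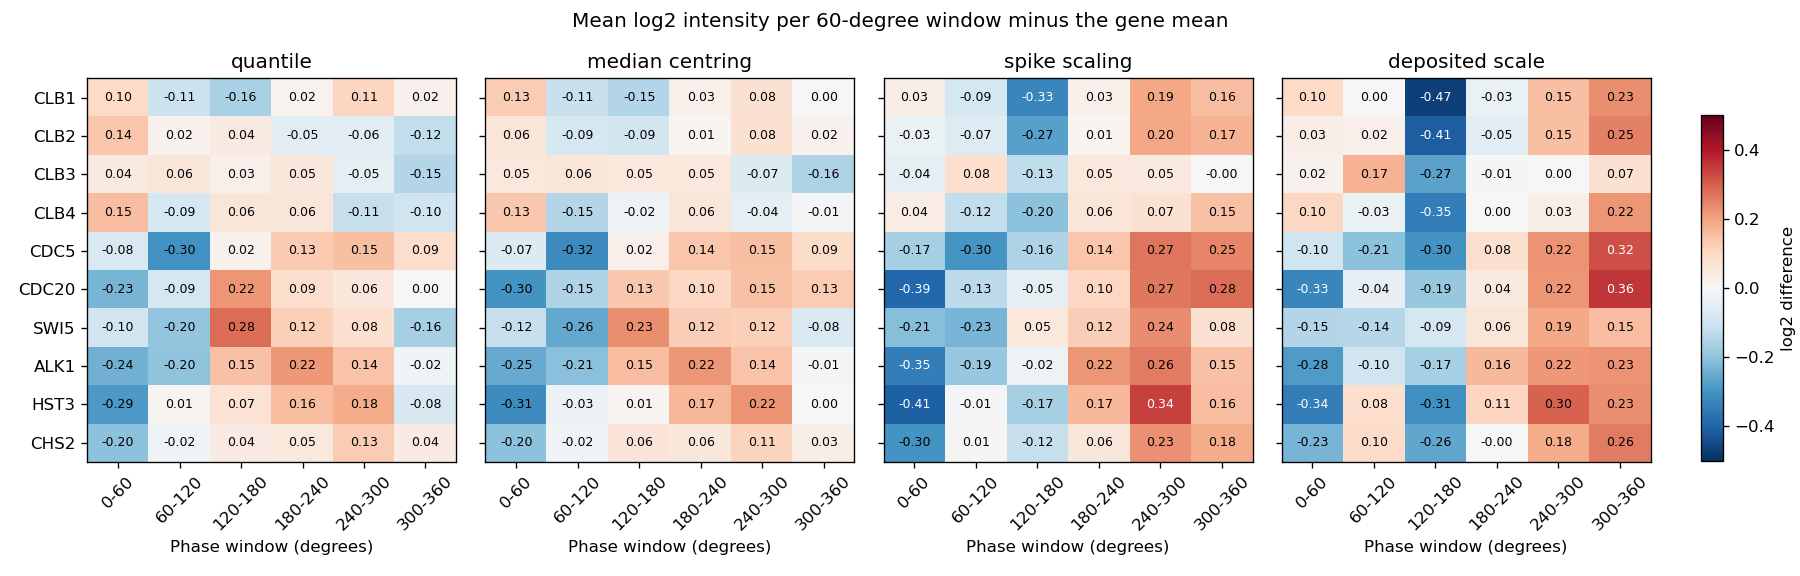
Mean log2 intensity in windows of 60 degrees (columns, with 5 arrays each and 6 from 0 to 60 degrees) minus the gene's mean, for 10 genes (rows) under 4 scalings (panels), blue for lower and red for higher. HST3 is lowest from 0 to 60 degrees in every panel, by 0.29 to 0.41, while the lowest window of CLB2 is 300 to 360 degrees in the quantile panel and 120 to 180 degrees in the others.

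Residuals of neighbouring arrays around the single cosine were correlated, with a median of 0.65 over all probe sets. Values ran from 0.25 (ALK1) to 0.67 (CLB1) over the 10 genes. Around the curve of the first 3 harmonics the median over all probe sets was 0.07. The adjustment below took the single-cosine median of the quantile scale for every scaling. It does not tell shape that a single cosine leaves out from noise shared by neighbouring arrays. When values and curve were adjusted for the single-cosine correlation, called serial correlation here, ALK1, SWI5, CDC5 and CDC20 passed (adjusted p = 0.00180, 0.0181, 0.0331 and 0.0480). These are 4 of 10 genes, where 60.3% of all tested probe sets passed. HST3, CHS2 and CLB3 then had adjusted p-values of 0.115, 0.160 and 0.299. With the deposited scale and the same adjustment none of the 10 passed (18.5% of all tested probe sets), and 0 had an unadjusted p under 0.05. With median centring and the adjustment 4 passed (56.8%), and with spike scaling ALK1 and CDC5 (42.6%). Over all settings tried, fits without 1 array included, adjusted p-values lay between 5.69e-10 and 0.594 for ALK1, 4.39e-08 and 0.382 for CDC5, 1.83e-08 and 0.575 for CDC20, and 2.60e-07 and 0.753 for SWI5. They lay between 5.09e-05 and 0.659 for HST3, 6.73e-06 and 0.750 for CHS2, 5.11e-08 and 0.812 for CLB1, 0.0111 and 0.951 for CLB2, 9.34e-08 and 0.990 for CLB3, and 4.57e-05 and 0.880 for CLB4. No gene of the 10 thus passed under every setting, and the combination of deposited scale and serial correlation was the 1 setting in which ALK1 and CDC5 did not pass.

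Within batches, which sampled different angles, 6 of 10 genes passed in each (77.1% of all tested probe sets in batch 1 and 83.2% in batch 2). ALK1 had ranges of 0.51 in batch 1 and 0.52 in batch 2, CDC5 of 0.43 and 0.39, SWI5 of 0.45 and 0.40, and CDC20 of 0.29 and 0.43. These 4 genes passed in both batches. HST3 and CHS2 had ranges of 0.26 and 0.12 in batch 1, where they did not pass (adjusted p = 0.149 and 0.358), and of 0.60 and 0.39 in batch 2, where they did. CLB3 and CLB4 passed in batch 1 alone, with ranges of 0.27 and 0.21 there (adjusted p = 0.0206 and 0.0103) and of 0.12 and 0.28 in batch 2. CLB2 had 0.04 in batch 1 and 0.39 in batch 2, and its arrays at 29.67, 41.54 and 100.88 degrees, the highest of all, belong to batch 2. A part of batch in the early maxima of CLB1, CLB2 and CLB4 was not tested, since batch 1 has no array at those angles. CLB1 passed when any 1 of the arrays at 5.93, 41.54, 53.41, 338.24, 350.11 or 362.01 degrees was left out (adjusted p between 0.0174 and 0.0497).

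The fourth question was whether the paralogs moved together. CLB2 minus CLB1 changed with phase after quantile normalization, with a range of 0.41 and a peak at 117 degrees (adjusted p = 0.00404 over 2 pairs, permutation test of 100000 permutations of the arrays, two-sided by its F statistic). Within an array, deposited, median-centred and spike-scaled values give the same difference, and on those scales its range was 0.11 with an adjusted p of 0.492. It did not pass with serial correlation (adjusted p = 0.728), with a linear time trend as a term (0.112), without the 5 dimmest arrays (0.0593) or within batch 1 (0.688), and passed within batch 2 (0.00182). CLB4 minus CLB3 gave the opposite outcome: its range was 0.10 after quantile normalization (adjusted p = 0.478) and 0.31, with a peak at 304 degrees, on the other scales (adjusted p = 0.00028). Whether either pair moved apart thus depended on the normalization, and over all settings adjusted p-values lay between 0.00012 and 0.728 for CLB2 minus CLB1 and between 0.00028 and 0.739 for CLB4 minus CLB3. The difference CLB4 minus CLB3 was lowest at 65.28 degrees on both scales. After quantile normalization CLB3 was there among its 4 highest arrays and CLB4 at its lowest, whereas on the deposited scale CLB3 was there at its highest and CLB4, at 934, was not at its lowest (579 at 124.62 degrees).

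CLB1 and CLB2 each lie next to a gene for an S phase cyclin, CLB6 and CLB5, in convergent orientation, per the table of R64 genes of strain S288C. These comparisons were chosen after the data were seen. CLB6 minus CLB1 had a range of 1.15 with a peak at 65 degrees after quantile normalization and 0.89 on the other scales (adjusted p = 2e-05 over 2 pairs, from a permutation p of 1e-05, the smallest that 100000 permutations can give). The highest difference was at 53.41 degrees, 0.82 above its mean, and the lowest at 255.17 degrees, 0.84 below. CLB5 minus CLB2 had a range of 0.50 with a peak at 16 degrees (adjusted p = 0.00126) and 0.58 on the other scales, and did not pass with serial correlation (adjusted p = 0.193). Over all settings the adjusted p lay between 2e-05 and 0.00034 for CLB6 minus CLB1 and between 0.00021 and 0.193 for CLB5 minus CLB2.

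**Figure D4:**
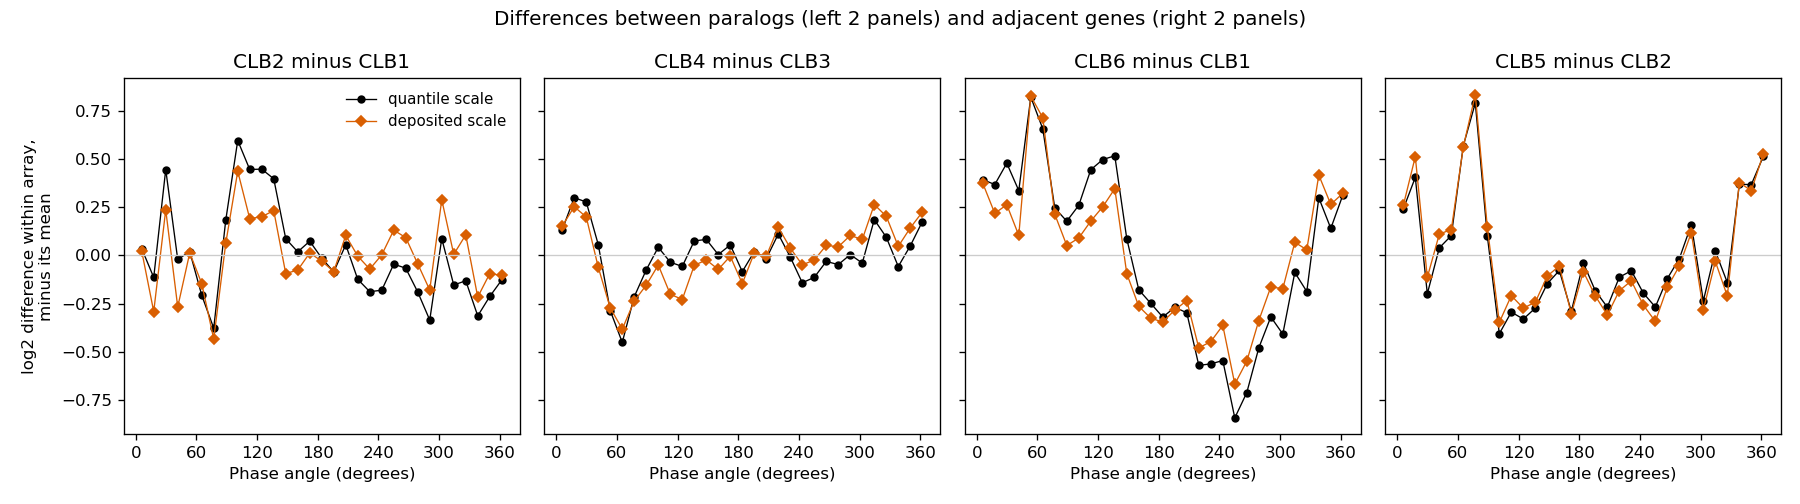
Log2 difference between 2 genes on the same array, minus its mean (vertical axis), against phase angle in degrees (horizontal axis), for 2 paralog pairs and 2 pairs of adjacent genes, with circles for quantile-normalized and diamonds for deposited values. CLB6 minus CLB1 swings between 0.82 at 53.41 degrees and -0.84 at 255.17 degrees after quantile normalization, and the paralog differences are smaller and differ between the scales.

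The fifth question was how related genes moved in the same arrays. Their values are those after quantile normalization unless another scale is named. Their counts and medians stand beside the 89.1% and the 0.54 of all tested probe sets. The other cyclins all varied with phase, 5 of 5, with a median range of 0.66: CLN2, a G1 cyclin, had 1.12 ± 0.08 with a peak at 58 degrees, and CLB6, an S phase cyclin, 1.09 ± 0.11 with a peak at 54 degrees (SE). CLN3, CLB5 and CLN1 had ranges of 0.66, 0.56 and 0.51 with peaks at 40, 39 and 129 degrees. Genes of S phase, mostly replication enzymes, passed in 8 of 10 cases with a median range of 0.61, and 7 of these 8 peaked between 0 and 60 degrees. POL1, the catalytic subunit of DNA polymerase alpha, had 0.74 ± 0.07 at 23 degrees, and MCM3, a subunit of the replicative helicase, 0.64 ± 0.06 at 359.2 degrees (SE). The peaks of CLN2, CLB6, CLN3, CLB5 and POL1 lie between 0 and 60 degrees, the window in which CDC20, ALK1, HST3 and CHS2 were lowest after quantile normalization. All 8 histone genes tested passed, with a median range of 0.28 and peaks between 135 and 203.2 degrees. The 2 with the smallest p, HTB2 and HTA1, had 0.38 ± 0.04 and 0.24 ± 0.03 (SE). On the deposited scale none of the 8 passed, where 73.3% of all tested probe sets did, and 0 had an unadjusted p under 0.05.

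**Figure D5:**
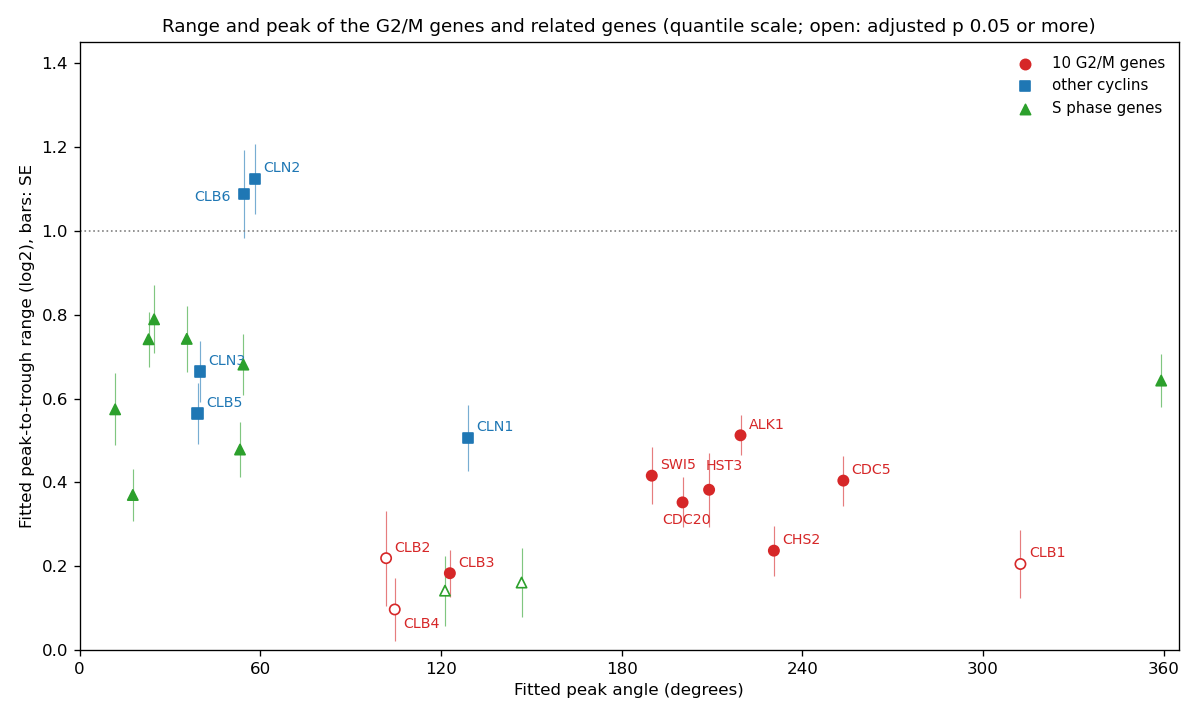
Fitted peak-to-trough range in log2 units with SE bars (vertical axis) against fitted peak angle in degrees (horizontal axis) after quantile normalization, for the 10 genes (circles), other cyclins (squares) and S phase genes (triangles), open where the adjusted p was 0.05 or more. CLN2 and CLB6 are the cyclins that lie above the dotted 2-fold line, and the 10 G2 and mitotic genes lie at or below 0.51.

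Of 18 further genes of the CLB2 cluster, 13 passed, with a median range of 0.21, and 7 of the 13 peaked between 180 and 240 degrees. AIM44, which encodes a protein of the bud neck, had 0.67 ± 0.05 at 188.8 degrees, and AIM20 0.53 ± 0.07 at 244 degrees (SE). WSC4, of the WSC family of cell wall sensors, was the 1 gene of the list past 2-fold, with 1.07 ± 0.18 at 176.8 degrees (SE). KIN3, KIP2, MOB1, HOF1 and DBF2, for a kinase, a kinesin, a kinase activator, a cytokinesis protein and a mitotic exit kinase, did not pass, with ranges from 0.08 to 0.17. Of 7 regulators of these genes 6 passed. The coactivator gene NDD1 had 0.53 ± 0.07 at 132 degrees, the forkhead gene FKH2 0.18 ± 0.07 with an adjusted p of 0.0540, and the homeobox repressor genes YOX1 and YHP1 0.85 ± 0.10 at 29.5 degrees and 0.69 ± 0.09 at 211 degrees (SE).

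All 8 genes of Cdk1 and its direct regulators passed, with a median range of 0.46, led by SIC1, the inhibitor of Clb-bound Cdk1, with 0.91 ± 0.06 at 148 degrees and SWE1, the inhibitory Wee1 kinase, with 0.54 ± 0.06 at 92 degrees (SE). CDC28, Cdk1 itself, had 0.42 ± 0.05 at 101 degrees (SE). All 16 genes of the APC/C and its regulators passed, with a median range of 0.52. The core subunit genes APC5 and APC2 had 0.74 ± 0.07 at 99 degrees and 0.50 ± 0.05 at 161 degrees, and CDH1, the activator that follows CDC20, had 0.33 ± 0.06 at 175.2 degrees (SE). Of 6 genes of anaphase 3 passed: MCD1, the cohesin subunit cleaved at anaphase, with 1.07 ± 0.09 at 43 degrees, PDS1, securin, with 0.44 ± 0.05 at 140.2 degrees, and ESP1, separase, with 0.30 ± 0.05 at 192.1 degrees (SE).

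In the mitotic exit network, which releases Cdc14, 9 of 12 genes passed with a median range of 0.22. NUD1, the spindle pole scaffold, had 0.64 ± 0.07 at 82 degrees and the kinase gene CDC15 0.44 ± 0.06 at 183.04 degrees (SE). In the spindle checkpoint 5 of 6 passed with a median range of 0.32, led by MAD3 and the kinase gene MPS1, which peaked at 181.03 and 179.4 degrees with ranges of 0.78 ± 0.07 and 0.42 ± 0.06 (SE). Of the Aurora kinase complex and the mitotic motors 9 of 11 passed with a median range of 0.28. The kinesin genes KIP1 and KIP3 had 0.73 ± 0.08 at 173.6 degrees and 0.26 ± 0.03 at 165 degrees (SE), and 6 of the 9 peaked between 120 and 180 degrees. Of 15 cytokinesis genes 13 passed with a median range of 0.22. The 2 with the smallest p, the formin gene BNI1 and the septin gene CDC3, had 0.51 ± 0.05 at 214 degrees and 0.48 ± 0.06 at 134 degrees (SE).

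Among relatives of HST3 and ALK1, 3 of 5 genes passed: HST2, a cytoplasmic sirtuin, with 1.07 ± 0.14 at 150.0 degrees, ALK2, the paralog of ALK1, with 0.54 ± 0.07 at 53 degrees, and SIR2, the silencing deacetylase, with 0.25 ± 0.04 at 349 degrees (SE). HST4, which shares the target of HST3, did not pass (0.08 ± 0.05, SE, adjusted p = 0.329). Some genes are in 2 of these lists, such as MOB1 and MYO1.

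The counts were lower or equal with serial correlation, where 60.3% of all tested probe sets passed. Then 5 of 5 other cyclins, 7 of 10 S phase genes and 7 of 8 histone genes passed, and 8 of 18 further genes of the CLB2 cluster with 3 of their 7 regulators. Of Cdk1 and its regulators 6 of 8 passed, of the APC/C 12 of 16, of anaphase 2 of 6, of the mitotic exit network 2 of 12 and of the spindle checkpoint 2 of 6. Of the Aurora complex and motors 5 of 11 passed, of cytokinesis 4 of 15 and of the relatives of HST3 and ALK1 2 of 5. On the deposited scale, where 73.3% of all tested probe sets passed, 15 of 18 further genes of the CLB2 cluster did, with 4 of their 7 regulators. There 4 of 5 other cyclins, 8 of 10 S phase genes and 4 of 5 relatives of HST3 and ALK1 passed. Of Cdk1 and its regulators 6 of 8 did, of the APC/C 10 of 16 and of the mitotic exit network 8 of 12. Of cytokinesis genes 6 of 15 passed, of the Aurora complex and motors 5 of 11, of the spindle checkpoint 3 of 6 and of anaphase 1 of 6. NDD1, PDS1 and APC5 had ranges of 0.05, 0.14 and 0.33 on that scale and did not pass (adjusted p = 0.934, 0.636 and 0.210). After quantile normalization without serial correlation, 8 of 12 meiotic, 13 of 14 mating-type and haploid, and 4 of 4 stationary-phase marker genes passed, with median ranges of 0.66, 0.52 and 1.59. Their part in the results above was not tested.

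The genes whose normalized profile over the 31 arrays was most like that of CLB2 were TRI1 (Pearson r = 0.81), STN1 (0.72), TDA6 (0.70), CTH1 (0.68) and DCC1 (0.68). For the other cyclins the nearest profile was that of THI2 for CLB1 (0.83), CMR3 for CLB3 (0.84) and HMI1 for CLB4 (0.81). It was that of CTS1 for CDC5 (0.84), MGR2 for CDC20 (0.92), EPL1 for SWI5 (0.87), ASH1 for ALK1 (0.91), YPS1 for HST3 (0.85) and EHT1 for CHS2 (0.84). HST3 and CHS2 were each among the 5 nearest to the other. None of the 5 genes nearest to any cyclin was 1 of the 10 genes. They did include KIN3 of the CLB2 cluster for CLB4 (0.79) and the regulator gene MCM1 for CLB3 (0.80).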

How the data were processed

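The deposited values are probe set intensities on a linear scale that the authors made with GCOS, per the submitters' processing notes. No source used here gives the GCOS version or its settings. Per the labels' protocols, oligo(dT)-primed cDNA was transcribed into biotinylated cRNA, which was fragmented and hybridized. Probe sets were named from the array annotation and the R64 gene table: of 10928, 5498 had an S. cerevisiae gene. From the deposited intensities log2 values were computed and quantile-normalized over these 5498 (limma 3.58.1, R 4.3.3). Probe sets of other species gave a detection floor, percentile 95 of their medians (17.04), and a median above it was required, which left 5422 probe sets for 5382 genes, with all 10 genes described.

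Phase was fitted by a cosine and a sine of the labelled angle and tested by limma's moderated F-test with Benjamini-Hochberg adjustment and a threshold of 0.05. SEs come from the delta method and take arrays as independent. Faster terms are those at 2 and 3 times the angle. Within-array differences were tested by 100000 permutations of the arrays, two-sided and adjusted over 2 pairs. Alternatives were other scalings, filters, serial correlation (pre-whitening at 0.645), batch and time terms, single batches and arrays left out. The fits were tested on simulated data with single cosines and independent noise, which does not test them under correlated residuals or faster variation. The genes named are the 10 genes, the 2 of each list described with the smallest p and any others whose role explains a count, the 5 most correlated with CLB2, the 1 most correlated with each other gene, and ACT1. The meaning of the numbers in the array descriptions is not given, so batch is a name for the split in the spike controls. The genes and lists were chosen with earlier results of these data known. Sequences of these genes are not analysed here, and 1 further list is not reported here. Figures were drawn with matplotlib 3.10.9.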

Additional observations from a re-analysis of the deposited data

How the results depend on the processing

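Of the settings tried, these moved a value past its limits. With serial correlation 4 of the 10 genes passed instead of 7, and together with the deposited, median-centred or spike scale 0, 4 and 2 (chosen after seeing the data). Over all probe sets those 3 combinations gave 1001, 3081 and 2311 passing instead of 4831. With 3 harmonics 2108 instead of 1253 probe sets passed with a 2-fold range. Faster variation passed for 2 instead of 7 genes within batch 1, where 63.0% of all tested probe sets passed. CLB2 minus CLB1 had a range of 0.41 that no longer passed with the deposited, median-centred or spike scale (0.11), serial correlation (0.39), a time trend (0.37), batch 1 alone (0.10) or without the 5 dimmest arrays (0.35). CLB4 minus CLB3 had a range of 0.10 that passed at 0.31 with the deposited, median-centred and spike scales and at 0.26 within batch 2. Leaving out each array in turn gave 7 to 8 genes passing, 0 with a 2-fold range, 7 to 8 with faster variation, 4797 to 4841 probe sets passing and 1152 to 1302 with a 2-fold range. It gave ranges of 0.35 to 0.47 for CLB2 minus CLB1 and of 0.08 to 0.12 for CLB4 minus CLB3. For single genes, 125 of 160 values under other settings kept their side of the threshold, 24 lost it and 11 gained it.

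Each gene had 1 probe set, so there was no other probe set to try. No paired analysis was possible because the arrays form 1 group. The design has 1 culture and 1 cycle, so recurrence cannot be tested. CEN.PK122 is not the strain of the R64 gene table. The part of other cell states in the profiles was not tested, nor that of batch and brightness beyond the settings above.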
